A study of Rattus norvegicus with 49 samples.

Results

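Cyp2e1 and 9 other genes that mark the hepatocytes around the central vein were followed through the liver of furan-treated rats. The genes were Cyp2e1, Cyp1a2, Glul, Oat, Slc1a2, Axin2, Lgr5, Tbx3, Rhbg and Lect2. They were chosen by name, through the RefSeq accession of each array probe, and make up 10 of the 15154 genes with a named probe. Each gene is reported by the probe with the brightest liver signal. Slc1a2 and Lgr5 each had a second probe.

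The rats were male and female F344, an inbred strain, aged 7 to 8 weeks when dosing began. They received furan, a contaminant of heated food, at 2, 0.5, 0.12 or 0.03 mg/kg in Mazola corn oil by oral gavage on 5 days a week for 90 days, and controls received the oil alone (0 mg/kg). Sex and dose gave 10 groups of 5 rats, except for 4 males at 0.03 mg/kg. Liver RNA carried Cy5 on each array and a universal rat reference RNA, pooled from several tissues, carried Cy3, so each level below is a log2 ratio of liver over reference. These levels can be compared between rats for 1 gene, and not between genes. Whole liver was measured, so fewer pericentral hepatocytes and less RNA per cell cannot be told apart, and the position of a transcript in the lobule was not seen.

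The liver lobule is zoned from the portal tracts to the central vein. Endothelial cells of the central vein release Wnt ligands and R-spondins, and β-catenin with the TCF/LEF factors then switches on the pericentral programme in the nearest hepatocytes. Cyp2e1, a cytochrome P450 enzyme that oxidises small molecules such as ethanol, acetone and furan, is part of that programme, as is Cyp1a2, which oxidises caffeine and aromatic amines. Furan is turned by Cyp2e1 into a reactive dialdehyde, so these cells hold the enzyme that activates it. Glul makes glutamine from ammonia and glutamate, Slc1a2 imports glutamate, Oat turns ornithine into glutamate semialdehyde and Rhbg carries ammonia. Axin2, Lgr5, Tbx3 and Lect2 are targets of Wnt signalling in liver, where Axin2 acts as a feedback inhibitor of the pathway and Lgr5 as the R-spondin receptor.

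The promoter windows of the genes are shown because the programme is driven through TCF/LEF factors. RefSeq (GRCr8) gave 10 windows of 250 bases before the transcript start for 8 of the 10 genes, and Lgr5 and Tbx3 had none in the table. The letters CTTTGA, the core of the TCF/LEF motif, were searched on both strands. They occurred in 13.9% of the 33469 windows of that length and in 6 of the 10 windows of these genes. The 6 windows belong to 6 of the 8 genes, which are Cyp2e1, Cyp1a2, Glul, Slc1a2, Axin2 and Lect2. Oat and Rhbg had no match in their windows. In the windows below, written 5′ to 3′ along the gene, capitals mark CTTTGA or, for a match on the opposite strand, TCAAAG. The Cyp2e1 window lies at chr1:205269717-205269966 on the plus strand and has its match 153 bases before the start. The Cyp1a2 window, at chr8:66978150-66978399 on the minus strand, has it 90 bases before the start. Axin2, at chr10:94398535-94398784 on the plus strand, has matches at 232 and 132 bases, and the second window of Slc1a2, at chr3:109507697-109507946 on the plus strand, at 188 (opposite strand) and 62 bases. The Oat window, at chr1:196797755-196798004 on the minus strand, is shown as an example of a window without a match. The second window of Glul and the first of Slc1a2, not shown, had no match either. A match describes letters only and is not a site of binding.
Cyp2e1: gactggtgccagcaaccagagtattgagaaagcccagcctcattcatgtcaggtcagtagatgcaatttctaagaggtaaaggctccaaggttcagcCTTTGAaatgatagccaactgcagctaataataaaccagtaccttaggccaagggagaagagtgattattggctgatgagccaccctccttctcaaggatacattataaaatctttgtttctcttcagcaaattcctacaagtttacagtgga
Cyp1a2: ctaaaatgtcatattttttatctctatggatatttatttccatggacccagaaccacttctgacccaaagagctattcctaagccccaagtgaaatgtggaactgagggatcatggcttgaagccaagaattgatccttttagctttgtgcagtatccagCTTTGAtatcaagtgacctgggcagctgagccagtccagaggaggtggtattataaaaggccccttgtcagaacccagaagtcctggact
Axin2: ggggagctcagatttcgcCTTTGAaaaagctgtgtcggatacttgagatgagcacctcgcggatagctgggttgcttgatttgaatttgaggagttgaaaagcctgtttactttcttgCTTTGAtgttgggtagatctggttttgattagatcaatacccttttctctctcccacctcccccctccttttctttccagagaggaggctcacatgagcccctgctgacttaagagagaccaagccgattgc
Slc1a2: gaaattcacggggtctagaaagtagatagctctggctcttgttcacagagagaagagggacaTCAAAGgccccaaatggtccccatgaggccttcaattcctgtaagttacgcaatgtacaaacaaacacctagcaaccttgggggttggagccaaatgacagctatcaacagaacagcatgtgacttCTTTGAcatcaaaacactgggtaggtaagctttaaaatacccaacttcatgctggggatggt
Oat: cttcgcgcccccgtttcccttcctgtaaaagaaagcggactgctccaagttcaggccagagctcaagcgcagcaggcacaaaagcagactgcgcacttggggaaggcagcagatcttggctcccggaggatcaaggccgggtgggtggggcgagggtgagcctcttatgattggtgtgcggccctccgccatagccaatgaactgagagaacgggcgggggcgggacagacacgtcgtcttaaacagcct

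The arrays came from 8 slides, and the slide set much of the level of some genes. On 48 arrays, 37.9% to 71.1% of liver spots were well above background, but for male 26 of the 0.03 mg/kg group (slide 8) the share was 5.06%. This array is called dim here, and 6 of the 9 genes tested had their lowest value of the series on it. The study's methods state that a male array failed quality control and was dropped. The males at 0.03 mg/kg number 4 here in place of 5, with the dim array still among them. Whether the dropped array is the dim one is not known. Slides 5 and 6 held treated rats and 0 controls. Slide was therefore a term of the model (fixed block). Values without the dim array stand beside some of the results it touches, but not all. A fitted difference includes that array unless the text says otherwise. In their own paragraphs this holds for all those of Glul, Rhbg, Slc1a2 and Axin2. It also holds for those of Oat in females and between the sexes, of Tbx3 in females and of the genes of the lists.

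Cyp2e1 was the member most bound to the slide. Its mean log2 ratio was 6.73, 7.04, 7.65 and 7.62 on slides 1 to 4 and 6.03, 6.07, 6.11 and 5.73 on slides 5 to 8 (48 arrays). Slide alone accounted for 94.6% of its variance over these arrays, against 77.0% for Cyp1a2, 21.7% for Oat and a median of 56.1% over all probes tested. Added after slide, the 10 groups took a further 1.92% of the total variance of Cyp2e1 and 60.8% of that of Oat, against 22.4% and 66.3% for the groups alone. The median share of liver spots above background was 61.1% to 69.0% on slides 1 to 4. On slides 5 to 8, where Cyp2e1 was lower, it was 43.2% to 56.3%. Within slides 5 to 8 the order differed, since slide 8 (49.4%) had the lowest Cyp2e1 level and slide 5 (43.2%) the lowest share. The part of that share in the Cyp2e1 level was not tested. The median reference signal of Cyp2e1 also ranged from 616 to 3225 between slides. Cyp2e1 was printed as 10 spots on each array, of which at least 1 was marked as poor on 20 arrays and left out. No liver spot of any gene was saturated on any array.

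**Figure D1:**
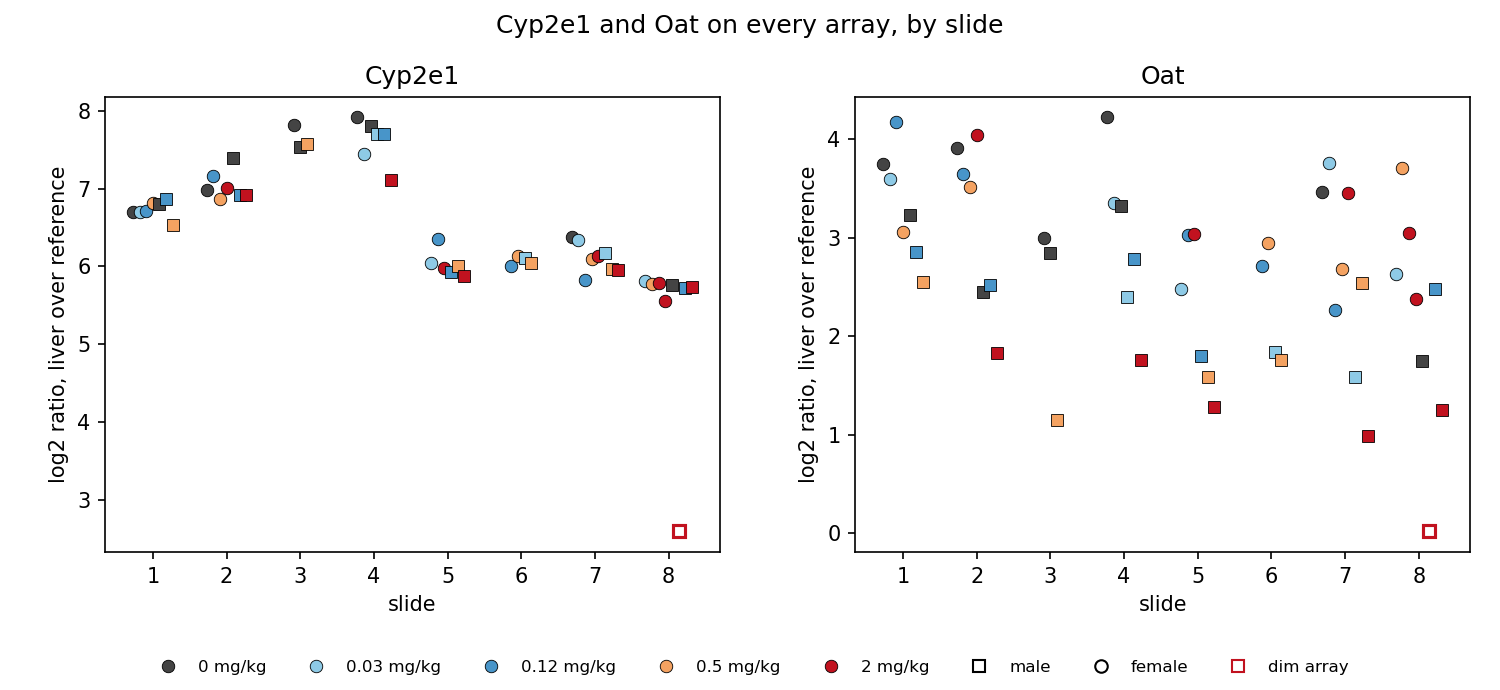
Log2 ratio of liver over reference for Cyp2e1 (left) and Oat (right) in each of the 49 rats, by slide (x axis); squares are males, circles females, colours the dose, and the open square the dim array. Cyp2e1 values cluster by slide, between 6.73 and 7.65 on average on slides 1 to 4 and between 5.73 and 6.11 on slides 5 to 8, while Oat values spread widely within most slides, with females mostly above males.

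At 2 mg/kg, 2 of the 9 tested genes fell in males, Oat and Slc1a2, and none passed in females. A gene is called changed when it passed both a Benjamini-Hochberg adjusted p of 0.05, taken over all 17661 tested probes, and a 1.5-fold change. In males 3.81% of all probes were called at 2 mg/kg (2.43% higher and 1.38% lower), and 0.657% in females. Of the 9 genes, 8 had a negative difference in males, with a median of -0.36 log2 against -0.02 over all probes. In females 5 were negative, and the median was -0.04 against 0.01. At a raw p of 0.05 the counts were 3 in males and 0 in females. No member was called at a lower dose in either sex. Of all probes 0% passed at 0.03 mg/kg in both sexes, while 0.17% of probes in males and 0.00566% in females passed at 0.12 mg/kg, and 0.142% and 0.017% at 0.5 mg/kg. The groups at 2 mg/kg did not overlap for 4.26% of probes in males, none of them of these genes. Lgr5 was well above background on 4 and 1 of the 49 arrays with its 2 probes and was not tested, so its level could not be followed.

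**Figure D2:**
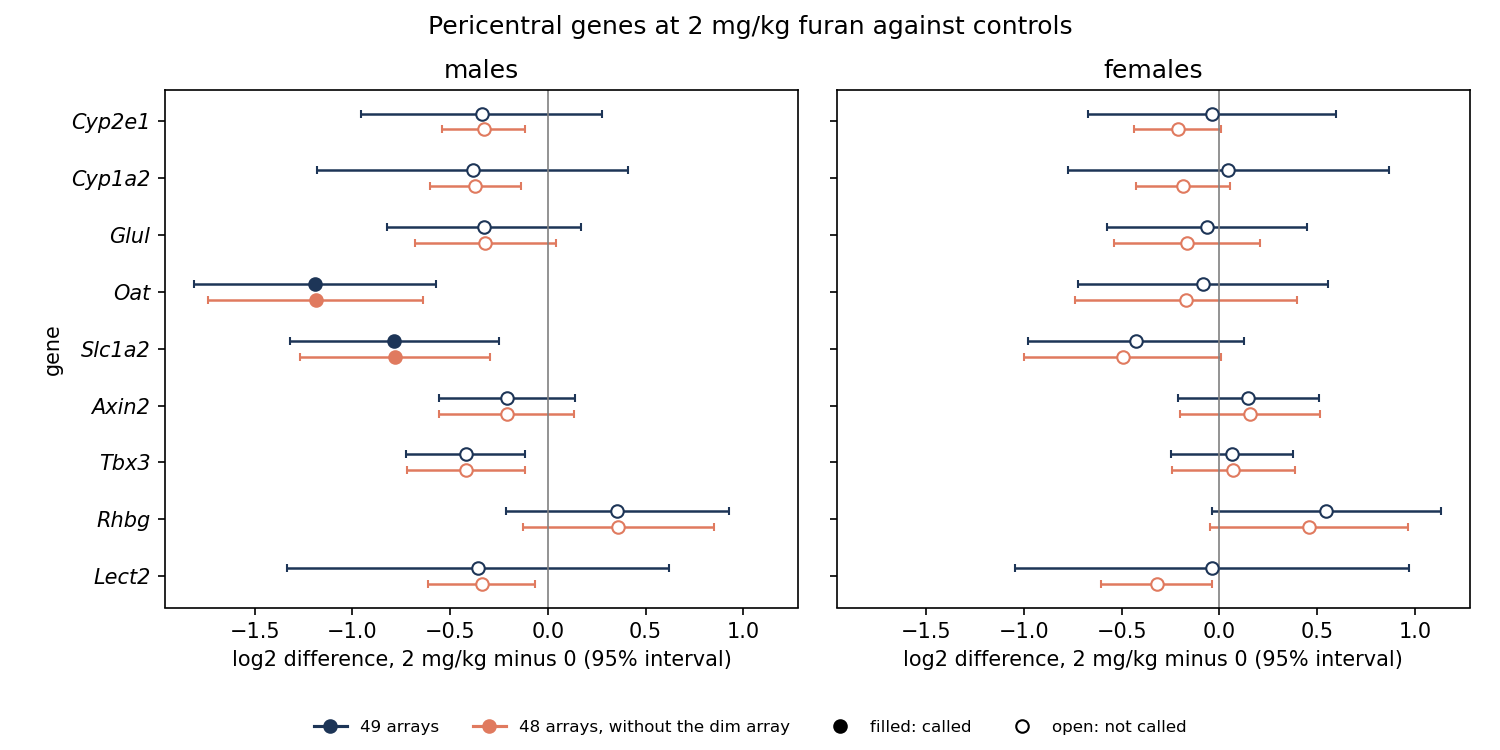
Log2 difference between 2 mg/kg and control rats for the 9 tested genes in males (left) and females (right), with slide as a block; bars are 95% intervals, dark blue uses all 49 arrays, orange 48 arrays without the dim one, and filled points were called. Oat and Slc1a2 lie at -1.19 and -0.78 in males, and no female interval from 49 arrays excludes 0.

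Oat had the largest difference of the 9 genes in males at 2 mg/kg. The log2 ratio in control males was 2.45, 2.85, 3.23, 3.32 and 1.75, and in males at 2 mg/kg it was 1.28, 0.99, 1.76, 1.83 and 1.25. All 5 treated males lay below the control mean, and 3 of 5 below every control, so the groups overlapped only through control male 6 (1.75, slide 8) and treated males 84 and 86. With slide as a block Oat fell by 1.19 ± 0.31 (SE), 2.29-fold (95% interval -1.81 to -0.57, adjusted p = 0.0073), and its fall was as large without the dim array (-1.19, adjusted p = 0.0014). Rats on the same slide differed by -0.63, -1.56 and -0.50 on slides 2, 4 and 8. At 0.5 mg/kg the male difference was -0.61 ± 0.31 (adjusted p = 0.62) and at 0.12 mg/kg -0.23 ± 0.30 (adjusted p = 1). At 0.03 mg/kg it was -1.13 with the dim array and -0.70 without it (adjusted p = 0.11 and 1), so the differences did not follow the order of the doses. Over all doses together Oat was the only member with an effect in males (limma's moderated F, adjusted p = 0.020), beside 12.1% of all probes. Without the dim array Cyp1a2, Slc1a2 and Lect2 passed too, but the share of all probes was not counted in that fit. In females no member had an effect over all doses, beside 0.804% of all probes.

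In females Oat did not pass at any dose. Controls had log2 ratios of 4.23, 3.47, 3.75, 3.00 and 3.92, and females at 2 mg/kg 3.05, 3.45, 3.04, 4.05 and 2.38. These groups overlapped, and the difference was -0.09 ± 0.31 (95% interval -0.72 to 0.55, adjusted p = 0.93). The same-slide differences were 0.13 and -0.02. The furan effect in males minus that in females was -1.11 ± 0.42 (95% interval -1.96 to -0.25), with an adjusted p of 0.21 over all probes, of which 0.108% were called. Thus the effect passed in males alone, but the difference between the sexes itself was not called.

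Slc1a2, the glutamate importer, was the other gene called. Its log2 ratio was 1.87, 2.13, 1.89, 1.47 and 0.31 in control males and 0.32, 0.33, -0.21, 1.59 and 0.53 at 2 mg/kg. Of the treated males 4 lay below 4 of the 5 controls, but control male 6 was as low as they were. The fall was 0.78 ± 0.26 on the log2 scale, 1.72-fold (95% interval -1.32 to -0.25, adjusted p = 0.041), and 7 of the 49 fits that each left out 1 rat lost the call. The same-slide differences were -0.28, -1.68 and 0.22, and the second, dimmer probe, above background on 26 arrays, gave -0.36 ± 0.15 (adjusted p = 0.095).

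Female Slc1a2 levels were 1.86, 1.59, 1.85, 1.83 and 2.17 in controls and 0.79, 1.41, 0.38, 1.30 and 0.86 at 2 mg/kg. The groups did not overlap on this brighter probe, as for 4% of all probes in this comparison. On the second probe they did, with -0.20 to 0.60 in controls and -0.22 to 0.03 at 2 mg/kg. With slide as a block the difference of the brighter probe was -0.43 ± 0.27 (95% interval -0.98 to 0.12, adjusted p = 0.43), and on slides 2 and 7 it was -0.88 and -0.19. Of the 5 treated females, 3 were on slides 5 and 8, where no control female was measured. The Slc1a2 effect was not called different between the sexes (-0.36 ± 0.36, adjusted p = 0.67).

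**Figure D3:**
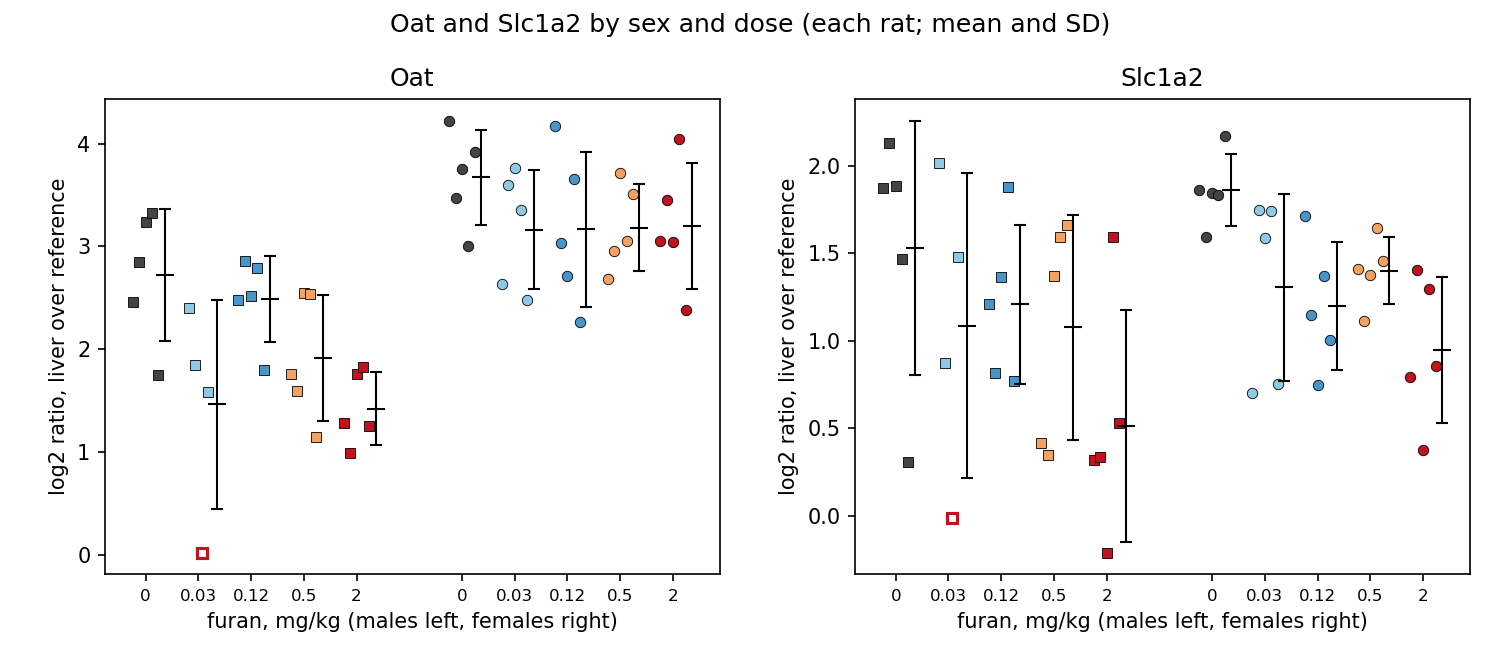
Log2 ratio of liver over reference for Oat (left) and Slc1a2 (right) in each rat by dose, males as squares on the left and females as circles on the right of each panel; bars beside the points are the group mean and SD, and the open red square is the dim array. Oat in males at 2 mg/kg lies between 0.99 and 1.83, below all females, and Slc1a2 in females at 2 mg/kg lies between 0.38 and 1.41, below the female controls.

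Glul, the glutamine synthetase confined to the innermost pericentral cells, gave log2 ratios of 2.31, 2.49, 2.22, 2.39 and 1.29 in control males and 2.04, 1.35, 1.25, 2.26 and 1.63 at 2 mg/kg. Control male 6 was again the low one, and the difference was -0.33 ± 0.25 (95% interval -0.82 to 0.17, adjusted p = 0.41). In females the 5 treated rats (1.69 to 1.95) lay below the 5 controls (2.03 to 2.50), in a comparison where 4% of all probes did not overlap. With the slide block that difference was -0.06 ± 0.25 (adjusted p = 0.94), and on slides 2 and 7 it was -0.56 and -0.21. Both same-slide differences were thus negative for Glul, as for Slc1a2, and neither gene was called in females.

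Rhbg, the ammonia carrier, was the only tested gene with a positive difference in males at 2 mg/kg (0.36 ± 0.28, adjusted p = 0.44), and in females it was 0.55 ± 0.29 (95% interval -0.04 to 1.14, adjusted p = 0.32). At 0.03 mg/kg all 5 females (0.29 to 0.53) lay below all controls (0.78 to 1.51), a separation seen for 0.374% of probes in that comparison. The difference with slide as a block was -0.25 ± 0.28 (adjusted p = 1), and the same-slide differences on slides 1, 4 and 7 were -0.49, -0.39 and -1.19. At 2 mg/kg the females ranged from 0.31 to 1.62, and 1 of 5 lay below every control.

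Cyp2e1 itself was not called at any dose. Its log2 ratio in control males was 7.40, 7.54, 6.81, 7.81 and 5.76, and at 2 mg/kg 5.88, 5.95, 7.11, 6.92 and 5.73. The groups overlapped, and the rats below 6 in both groups sat on slides 5, 7 and 8. The difference was -0.34 ± 0.30 (95% interval -0.95 to 0.28, adjusted p = 0.50), which becomes -0.33 ± 0.10 with an adjusted p of 0.020 when the dim array is left out, a 1.26-fold decrease that is under the fold threshold. On slides 2, 4 and 8 the difference between the treated and the control male was -0.48, -0.70 and -0.02.

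In females Cyp2e1 was 7.92, 6.37, 6.70, 7.82 and 6.99 in controls and 5.79, 6.13, 5.97, 7.01 and 5.56 at 2 mg/kg. Without regard to slide the treated mean differed by -1.07 log2 units (adjusted p = 0.22). With slide taken out the difference was -0.04 ± 0.31 (95% interval -0.67 to 0.60, adjusted p = 0.97), and without the dim array -0.21 ± 0.11 (adjusted p = 0.22). Same-slide differences were 0.02 and -0.24. Both same-slide differences were thus smaller than the difference of the group means.

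Cyp1a2 was not called either. In control males its log2 ratio was 5.54, 5.38, 4.91, 5.71 and 4.47, and in males at 2 mg/kg 4.70, 4.62, 4.86, 5.12 and 4.23. All 5 treated males lay below the control mean, and 1 of 5 below every control. The difference was -0.38 ± 0.39 (adjusted p = 0.56) with all arrays and -0.37 ± 0.11 (1.29-fold, adjusted p = 0.016) without the dim array, and -0.42, -0.85 and -0.24 within slides. In females it was 0.05 ± 0.40 with all arrays and -0.19 ± 0.12 (adjusted p = 0.34) without the dim one. At 0.03 mg/kg the male differences of Cyp2e1, Cyp1a2 and Lect2 were -0.95, -1.19 and -1.05 with the dim array and -0.07, -0.03 and 0.37 without it, so the low values at that dose came from 1 array.

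**Figure D4:**
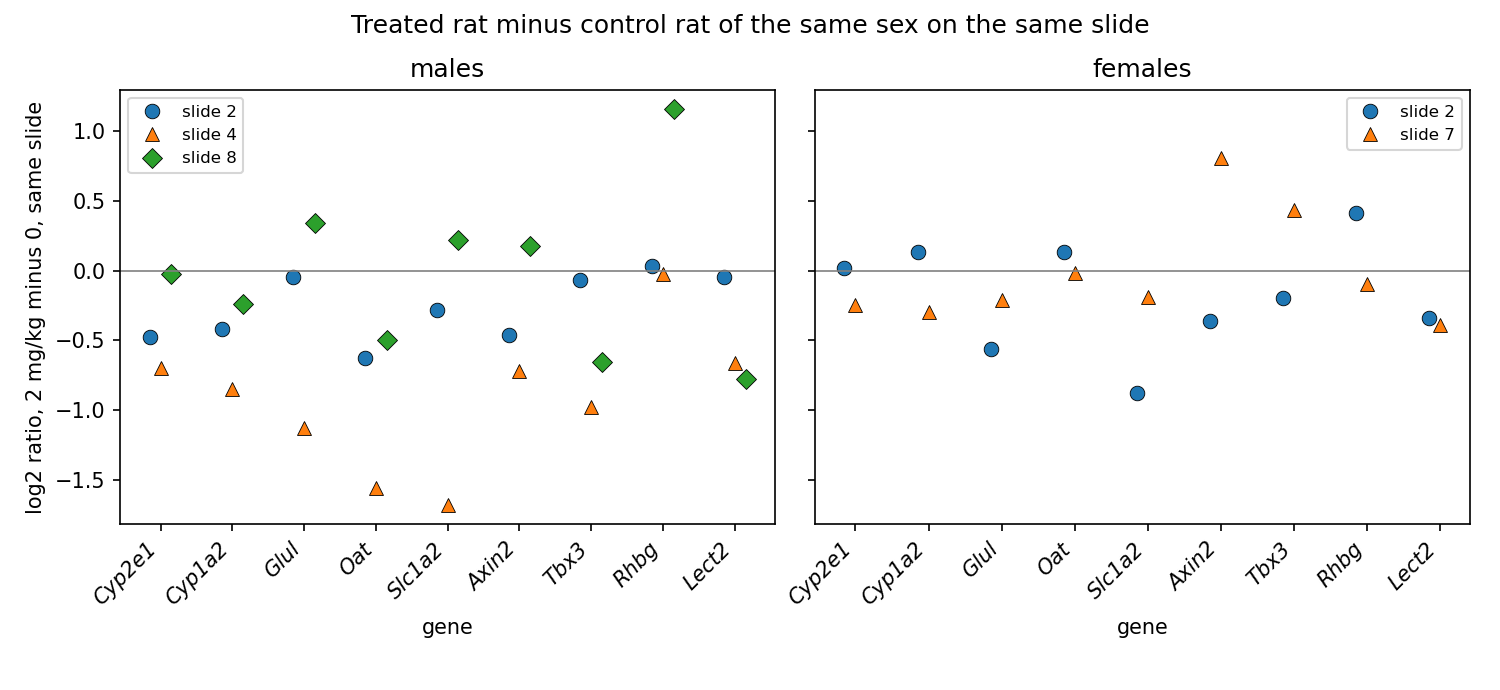
Log2 ratio of the 2 mg/kg rat minus that of the control rat of the same sex on the same slide, for the 9 tested genes (x axis), in males on slides 2, 4 and 8 (left) and in females on slides 2 and 7 (right). In males Cyp2e1, Cyp1a2, Oat, Tbx3 and Lect2 are below 0 on all 3 slides, and in females Glul, Slc1a2 and Lect2 are below 0 on both.

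None of the tested members Axin2, Tbx3 and Lect2, described above as Wnt targets, was called against controls in either sex. Tbx3, a T-box transcription factor, had log2 ratios of 0.64, 0.64, 0.23, 0.83 and 0.25 in control males and -0.11, -0.25, -0.15, 0.57 and -0.41 at 2 mg/kg. Of the treated males, 4 of 5 lay below every control. The difference was -0.42 ± 0.15 (95% interval -0.72 to -0.12, adjusted p = 0.055), and without the dim array its adjusted p was 0.037 at 1.34-fold, under the fold threshold. In females it was 0.06 ± 0.15 (adjusted p = 0.89). Axin2, near background with 34 of 49 arrays above it, differed by -0.21 ± 0.17 in males (adjusted p = 0.46) and 0.15 ± 0.18 in females (adjusted p = 0.73).

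Lect2, a secreted hepatocyte protein that attracts leukocytes, had log2 ratios of 6.07, 5.77, 5.79, 5.71 and 5.20 in control males and 5.12, 4.86, 5.04, 6.02 and 4.42 at 2 mg/kg, and 4 of 5 treated males lay below every control. The difference was -0.36 ± 0.48 (adjusted p = 0.67), and -0.34 ± 0.14 (adjusted p = 0.067) without the dim array, on which Lect2 was 0.24. In females Lect2 was 6.22, 5.77, 6.40, 6.69 and 6.61 in controls and 5.56, 5.38, 5.38, 6.27 and 5.58 at 2 mg/kg, where the difference was -0.04 ± 0.50 (adjusted p = 0.98), and -0.32 ± 0.14 (adjusted p = 0.15) without the dim array. Without that array both sexes thus gave a negative difference, and neither was called.

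Oat was lower in control males than in control females, a call that was lost in 10 of the 49 fits that each left out 1 rat (adjusted p up to 0.156) and under 7 of 16 other settings. Control males lay 0.87 ± 0.30 below control females on the log2 scale (difference -0.87, 1.83-fold, adjusted p = 0.044), the only 1 of the 9 genes called, beside 5.51% of all probes (3.01% lower in males). The same-slide differences between a control male and a control female were -0.52, -1.46, -0.15 and -0.90 on slides 1 to 4. At 0.5 and 2 mg/kg every male lay below every female, with highest male values of 2.55 and 1.83 and lowest female values of 2.69 and 2.38. The sexes did not overlap for 4.41% of all probes at 0.5 mg/kg (2.44% with males lower) and for 3.85% at 2 mg/kg (1.67% with males lower). Lect2 was also lower in control males on all 4 slides (-0.61, -0.54, -0.91 and -0.51), with a fitted difference of -0.49 ± 0.47 (adjusted p = 0.53), and of -0.64 ± 0.13 (adjusted p = 4.6e-04) without the dim array, which is called. The 5.51% of probes given above is of the fit with the dim array and is not the share beside that call. Rhbg was higher in control males on the same 4 slides (0.39, 1.08, 0.65 and 0.40), with a difference of 0.35 ± 0.27 (adjusted p = 0.42). Cyp2e1 (0.06 ± 0.29), Cyp1a2 (0.23 ± 0.38) and Glul (-0.04 ± 0.24) were not called.

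**Figure D5:**
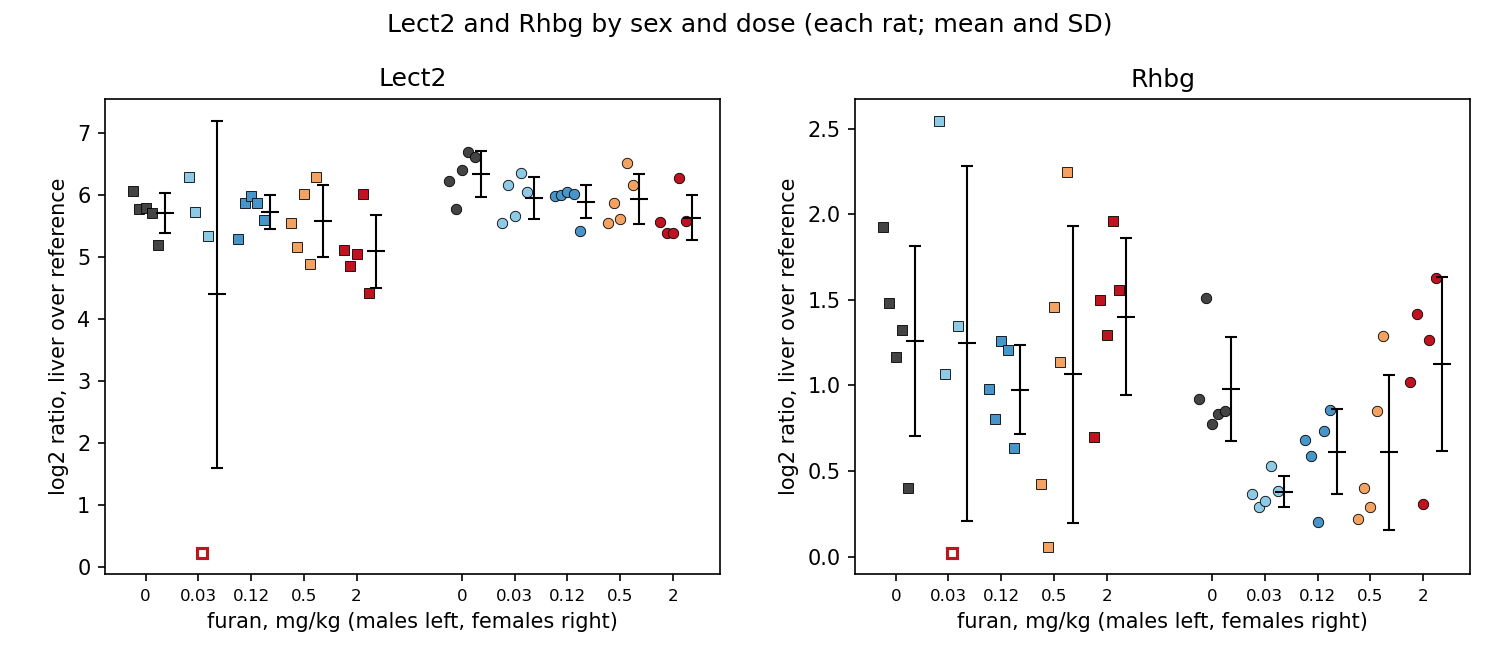
Log2 ratio of liver over reference for Lect2 (left) and Rhbg (right) in each rat by dose, males as squares and females as circles, with the group mean and SD beside the points and the dim array as an open red square. Lect2 in control females lies at 5.77 to 6.69 against 5.20 to 6.07 in control males, and Rhbg in females at 0.03 mg/kg lies between 0.29 and 0.53.

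Other genes of the pericentral programme were read from lists. Of all probes, 2.43% were called higher and 1.38% lower in males at 2 mg/kg, and 0.657% were called in females. Of 14 tested genes of Wnt and β-catenin signalling, 1 fell in males at 2 mg/kg. This was Notum, a secreted enzyme that inactivates Wnt ligands and is itself a Wnt target (-0.85 ± 0.28, adjusted p = 0.034), which gave 0.04 ± 0.28 in females. The list's median was -0.06 in males and -0.01 in females. Rspo3, the R-spondin of the central vein, gave -0.39 (adjusted p = 0.20) in males and -0.06 in females, and Ctnnb1, which encodes β-catenin, 0.14 and 0.10. Of 10 other pericentral genes none was called in either sex, with medians of -0.30 in males and 0.10 in females. The largest difference among them was that of Cyp7a1, the rate-limiting enzyme of bile acid synthesis, in males (-1.05 ± 0.58, adjusted p = 0.24).

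Of 6 partners and regulators of Cyp2e1, 1 rose in males, beside 2.43% of all probes. Por, the reductase that passes electrons to microsomal P450 enzymes, rose by 0.70 ± 0.15 (adjusted p = 0.0018), with 0.42 ± 0.16 (adjusted p = 0.14) in females. Of 12 other genes of glutamine, glutamate and proline metabolism none was called, with medians of -0.12 in males and 0.16 in females. Without the slide block neither Por nor Notum was called in males, and 1 gene of the Wnt and β-catenin list was called in females.

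Negative differences in males were also found on the periportal side. Of 13 tested periportal genes 11 had a negative difference in males at 2 mg/kg, with a median of -0.41, and 3 in females, with a median of 0.27. Sds, the serine dehydratase of the periportal zone, was the only one called (-1.79 ± 0.60, adjusted p = 0.039, in males), beside 1.38% of all probes called lower. Beside the pericentral genes, all 8 general hepatocyte markers were negative in males (median -0.47), and 1, Tat, fell by 1.05 ± 0.33 (adjusted p = 0.031). Alb gave -0.52 (adjusted p = 0.0053) and Ttr -0.51 (adjusted p = 0.014), both under the fold threshold. In females 4 of the 8 were negative (median -0.03). Without the slide block neither Sds nor Tat was called.

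Some markers of other cells were also called in males at 2 mg/kg, where 2.43% of all probes were called higher and 1.38% lower. Of 7 tested bile duct markers 4 rose, namely Cftr (0.94), Epcam (0.92), Krt19 (0.76) and Prom1 (1.35). The mean level over the 7 ranged from -1.25 to -0.81 in control males and from -0.87 to 0.31 in males at 2 mg/kg, and from -0.53 to -0.34 and -0.43 to 0.01 in the matching females. Of 8 stellate cell markers 1 rose (Rgs5, 0.85), and the mean over the list ranged from -1.08 to -0.46 in control males and -0.90 to 0.27 at 2 mg/kg. Of 5 red cell markers 1 fell (Slc4a1, -0.71), and of the macrophage, endothelial and pancreas markers none was called. Without the slide block 2 of the bile duct markers were called in males, and neither Rgs5 nor Slc4a1 was. In females 1 stellate cell marker was called without it. The mean of the 9 pericentral genes ranged from 2.14 to 3.25 in control males and from 2.11 to 2.92 at 2 mg/kg. The part of these cells in the fall of Oat and Slc1a2 was not tested.

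The genes varied together to a limited extent. With slide taken out, over the 48 arrays, the median Pearson r of their 36 pairs was 0.34, and 29 pairs were above 0. The closest pairs were Glul with Slc1a2 (0.75), Cyp2e1 with Cyp1a2 (0.74) and Axin2 with Tbx3 (0.66), and the lowest r was that of Oat with Rhbg (-0.53). These points share arrays, a reference and a scaling, and the groups are included, so the values describe the arrays only. Over all 49 arrays the genes most like Cyp2e1 were Hpd (0.98), Apom (0.98), Apoa2 (0.98), Clec4f (0.98) and Cyp2c6v1 (0.97), an order that the dim array shaped. Over 48 arrays they were Itih3 (0.86), Hpd (0.86), Ang (0.83), Itih1 (0.83) and Apoa2 (0.82). For Glul the 5 were Slc13a3 (0.81), Gsto1 (0.81), Tmem176a (0.80), Notum (0.79) and Akr1c1 (0.79) over 49 arrays, and Slc13a3 (0.75), Gsto1 (0.70), Tmem176a (0.69), Rspo3 (0.68) and Notum (0.68) over 48.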

How the data were processed

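Liver RNA of 49 rats was measured on 2-colour arrays with no dye swap, read with Agilent Feature Extraction 10.7.3.1 per the file headers. The deposited scanner files hold median spot and background intensity, marks of spot quality and a log10 ratio made by the scanner software. The series matrix carries log2 ratios as normalised by the authors, whose methods name R, and 0 of its columns were left out. Signals were background corrected (normexp, offset 50) and loess normalised within each array in limma 3.58.1 (R 4.3.3, with the data.table package, version 1.17.8), poor spots were dropped and spots of a probe averaged. The liver-channel filter (4 or more arrays of any 1 group marked as well above background) kept 17661 of 30367 probes. Probes were named through RefSeq GRCr8 (names only), which named 18004. The fit held 10 group means and slide, with Benjamini-Hochberg adjustment, and all tests are 2-sided. Animals are the replicates, and the labels do not say whether any shared a cage or litter.

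The members and lists were chosen with earlier results of these data known. All members are named, each by its brightest probe, as is every gene of the lists called at 2 mg/kg with slide as a block. The 5 genes most correlated with Cyp2e1 and Glul are named too, and other genes were named after their values were seen. With 50 simulated probes per fold in the male comparison at 2 mg/kg, 50% were called at 1.5-fold, 86% at 2-fold and 98% at 3-fold, with 4 calls of unchanged probes. The changed probes were drawn at random from all those tested, so these shares need not hold for the members, whose standard errors differ. A call itself needs an estimate of 1.5-fold, so the share at a true 1.5-fold is held near 50% by the rule. The simulated noise was normal and independent between probes, which real probes need not be. Alternatives covered slide, the dim array, weights, normalisation, background, filter, probe choice and leaving out each rat. The number of arrays limits the precision.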

Additional observations from a re-analysis of the deposited data

Results flagged for a closer look

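Within a group of 4 or 5 rats, a rat is listed here when its gap to the nearest other rat took up more of the group's range than Dixon's limit allows. Of 100 groups over the 10 genes 10 passed, 2 of them on the dim array. Chance alone gives about 1 in 20 where rats differ only at random, which does not hold here, since the values were not adjusted for slide. Every rat of the series was the only one of its group on its slide, except females 82 and 92 at 2 mg/kg (slide 8). The 2 on the dim array were of male 26 at 0.03 mg/kg, the lowest of its group in Cyp1a2 (gap over range 0.886) and in Lect2 (0.843). Among controls, male 6 was lowest in Glul (0.779), and female 4 highest in Rhbg (0.808). For Cyp1a2, female 72 (0.77) and male 70 (0.806) were highest at 0.5 mg/kg. For Lect2, female 51 was lowest at 0.12 mg/kg (0.903) and female 90 highest at 2 mg/kg (0.77). For Lgr5, near background throughout, male 25 at 0.03 mg/kg (0.834) and male 52 at 0.12 mg/kg (0.814) were lowest.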

How the results depend on the processing

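Of 16 alternatives, 9 kept 2 members called in males at 2 mg/kg and all kept 0 in females and at lower doses. The count in males was 1 without the slide block, without slides 5 and 6, with median centring, with the series matrix, with no filter and with the mean over a gene's probes, in each of which Oat was the gene called, and 0 with the liver channel alone. The scanner log ratio called Oat and Tbx3. Over all probes the calls in males at 2 mg/kg were 673, against 392 without the slide block and 1021 with the scanner log ratio. In females they were 116, against 17 with the liver channel alone, 44 with median centring, 45 without slides 5 and 6, 248 and 309 without the dim array (with and without the slide block), 286 with the series matrix and 465 with array weights. For the interaction they were 19, with a range of 2 without the slide block to 323 with array weights, and between control sexes 973, against 547 without the slide block, 651 with the series matrix, 576 with the liver channel and 1544 with median centring. The members called between control males and females were 0 without the slide block, also without the dim array, 0 without slides 5 and 6, with the scanner log ratio, the series matrix and no filter, and 2 without the dim array, with array weights and with the liver channel alone (Cyp2e1 -0.77 and Cyp1a2 -1.01, adjusted p = 0.0084 and 0.037, in place of Oat). Members with an effect at any dose in males were 0 without the slide block, with or without the dim array, 0 with median centring and the liver channel, 4 without the dim array and 2 with array weights. The share of all probes with such an effect was not counted in these settings. With array weights the interaction count was 1 (Oat, adjusted p = 0.028, against 0.028 to 0.997 over the alternatives). The cause was not tested.

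No value that turned its sign with a setting was called, except those 2 with the liver channel. Without the slide block, with or without the dim array, Cyp1a2, Axin2 and Tbx3 in females at 2 mg/kg were -0.56, -0.11 and -0.25 and Cyp2e1 between control sexes -0.10. Cyp1a2 in females was -0.045 with slide as a random block, -0.19 without the dim array, -0.16 with array weights, -0.13 with median centring, -0.45 with the series matrix and -0.23 with the liver channel. Cyp2e1 between control sexes was -0.026 without the dim array, -0.0073 with array weights and -0.20 with median centring, where Cyp1a2 was -0.22. Without slides 5 and 6, Cyp2e1, Glul and Lect2 in females were 0.0032, 0.015 and 0.085, and with no background correction Lect2 was 0.0060. With the series matrix Axin2 and Tbx3 in females were -0.14 and -0.27. With the liver channel Cyp2e1 was 0.22 in males and 0.17 in females, Glul 0.011 and Oat 0.15 in females.

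Leaving out each of the 49 rats in turn, the count in males at 2 mg/kg was 1 to 2. Oat was called in all 49 fits (adjusted p 0.0014 to 0.028), and Slc1a2 was lost without female control 9, male control 2, 3, 4 or 5, or male 83 or 84 at 2 mg/kg. Counts were 0 to 4 at lower doses in males (above 0 without male 22, 25 or 27 at 0.03 mg/kg), 0 to 2 between control sexes and 0 to 4 for any dose in males. Values in females at 2 mg/kg ranged over -0.21 to 0.016 for Cyp2e1, -0.19 to 0.15 for Cyp1a2, -0.17 to 0.049 for Glul, -0.19 to 0.046 for Oat, -0.039 to 0.14 for Tbx3 and -0.32 to 0.11 for Lect2, and over -0.026 to 0.16 for Cyp2e1 between control sexes. Animal numbers were shared only by a male and a female of a dose (8 numbers, r from -0.21 to 0.29) and do not pair doses with controls. With the number as a replicate block the count in males was again 2. Of the 49 columns of the series matrix 7 followed their own array best, 40 another array of the same group and 2 an array of another group, so that table was used without slide. Which of the deposits carries the right animal numbers is not known, and all other values here, with their animals and slides, follow the scanner files.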
